A study of Homo sapiens with 9 samples.

Results

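SOX5, SOX6 and SOX13 are the 3 genes of the SOXD family, and their reads were followed in cranial neural crest cells (CNCCs) that lost the SOX9 protein. The genes were taken by symbol, as 3 of the 18970 genes listed in a table of all reads and in a table of reads with T>C conversions, and all 3 passed the filter on low counts in both. The CNCCs were differentiated from the human embryonic stem cell line H9, edited so that both copies of SOX9 carried an FKBP12-based degron, a fluorescent protein and an epitope at the carboxy terminus. Adding the small molecule dTAGV-1 directs the tagged protein to degradation. SLAM-seq marks newly made RNA: cells were fed 100 uM of 4-thiouridine (4sU) for 2 h before harvest, and after alkylation of the RNA labelled bases were read as T>C in libraries of transcript 3′ ends. The same 3 cultures were sampled at 3 times. The 0h group carries the label of no treatment time and a relative SOX9 level of 100%, the 3h group was labelled from 1 h after dTAGV-1 and the 24h group from 22 h after it, both at 500 nM and with a labelled SOX9 level of 0%. The labels print the same dTAGV-1 concentration for the 0h group, for which the protocol gives the vehicle DMSO. Culture S9CC13_R6 came from the clone S9CC13, cultures S9CC47_R5 and S9CC47_R6 came from the clone S9CC47, and R5 and R6 name the differentiation batch. Every sample carried the SOX9 tag, and cells without it were not analysed here.

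SOXD proteins bind DNA through an HMG box and pair through a coiled coil, but they have no transactivation domain of their own. SOX5 and SOX6 are best known from cartilage, where they bind beside SOX9 on genes of the cartilage matrix such as COL2A1 and ACAN and raise their expression. The same proteins repress other genes with corepressors such as CTBP2 and HDAC1, and in melanocytes and glia they oppose SOXE proteins, the group of SOX8, SOX9 and SOX10. SOX13 is less studied and binds TCF factors of the WNT pathway. SOX9 also raises SOX5 and SOX6 in cartilage, so the question put to these cells was whether new RNA of each SOXD gene changed once SOX9 was lost from neural crest.

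The 3 genes differ in their layout on hg38. SOX5 (ENSG00000134532) lies on chromosome 12 from 23529504 to 24562544 on the minus strand, spans 1033.0 kb and has 12 protein-coding transcripts in GENCODE, whose spans run from 50.6 to 1028.7 kb. SOX6 (ENSG00000110693) lies on chromosome 11 from 15966449 to 16739591 on the minus strand, spans 773.1 kb and has 10 such transcripts, from 63.9 to 509.9 kb. SOX13 (ENSG00000143842) occupies 204073115 to 204127743 of chromosome 1 on the plus strand, spans only 54.6 kb and has 4, from 14.8 to 54.6 kb. Reads came from 3′ ends, so transcripts with different starts and a shared last exon cannot be told apart here. Not all annotated ends are shared. Those within 100 bases of the canonical end, itself included, were 1 of 12 for SOX5, 4 of 10 for SOX6 and 2 of 4 for SOX13. Which ends gave the reads is not known, and only the canonical last exon was looked at. The last exon of the canonical transcript covers 23529504 to 23534522 for SOX5, 15966449 to 15973112 for SOX6 and 204125858 to 204127743 for SOX13, and no other protein-coding gene overlaps any of these exons.

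Sequences at the starts are shown to let the HMG-box core be seen next to the response of each gene. They come from RefSeq (GRCh38.p14), read 5′ to 3′ on the strand of the gene, and bases that GENCODE places in an exon were left off. Capitals mark ACAAT or its reverse complement ATTGT, the core that SOX proteins share. The SOX5 stretch is chr12:24562545-24562741, the SOX6 stretch chr11:16356547-16356796 is the start inside the gene that carries a facing pair, and the SOX13 stretch is chr1:204072865-204073114.
SOX5: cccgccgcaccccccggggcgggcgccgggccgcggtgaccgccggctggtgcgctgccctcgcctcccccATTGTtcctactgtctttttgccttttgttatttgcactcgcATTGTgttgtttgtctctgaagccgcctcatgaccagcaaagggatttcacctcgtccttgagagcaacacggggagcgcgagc
SOX6: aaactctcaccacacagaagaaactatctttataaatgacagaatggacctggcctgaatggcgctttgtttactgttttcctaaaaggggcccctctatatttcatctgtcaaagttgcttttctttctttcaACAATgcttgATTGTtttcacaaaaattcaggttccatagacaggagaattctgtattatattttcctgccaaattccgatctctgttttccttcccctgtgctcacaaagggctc
SOX13: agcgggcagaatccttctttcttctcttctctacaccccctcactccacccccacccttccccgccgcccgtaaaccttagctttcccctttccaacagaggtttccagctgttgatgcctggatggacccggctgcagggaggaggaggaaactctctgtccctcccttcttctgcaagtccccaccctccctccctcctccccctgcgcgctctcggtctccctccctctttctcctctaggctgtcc

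In the 250 bases before its single listed start, SOX5 held 2 cores, which begin 179 and 137 bases before the start. This start is at the far end of the gene, which spans 1033.0 kb. GENCODE gives the SOX5 coding transcripts 11 distinct starts. The canonical one spans 420.2 kb, so it starts well inside the gene and its window was not searched. Which start the reads came from cannot be seen from 3′ ends. SOX6 has 5 listed starts, and 5 of the 5 windows held at least 1 core. The SOX6 window printed above holds ACAAT followed after 5 bases by ATTGT, a facing arrangement known from sites that SOX9 dimers bind. SOX13 held 0 cores in its 1 window. Across 20700 windows of the same length from 14609 protein-coding genes, 18.98% held a core on either strand, 3.86% held at least 2, and 6 windows (0.029%) held a facing pair 3 to 5 bases apart. The core is rich in A and T, and so are the 4 SOX6 windows further into the gene, with 27.2% to 40.8% GC against a median of 62.4% over all windows. Among the 1814 windows within that range of GC, 55.0% held a core. The fifth SOX6 window had 58.8% GC, the SOX5 window 65.6% and the SOX13 window 60.8%. The search for facing pairs was chosen after the SOX6 window had been seen, and these matches describe letters and not binding.

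Total reads per library ranged from 16955633 to 28782678 and T>C reads from 3130673 to 5475800, so that 15.9% to 21.3% of the reads of a library carried a conversion. All 10 markers of cranial neural crest and its mesenchyme, TFAP2A and TWIST1 among them, had a mean of at least 1 CPM, where CPM is a count per 1000000 total reads of its library. POU5F1 and NANOG, which define the stem cells of origin, were at 0.00416 and 0.0882 CPM on average. Of all 6 pluripotency markers, however, 3 had a mean of at least 1 CPM. These were LIN28A at 294 CPM, DPPA4 at 37.9 CPM and DNMT3B at 22.4 CPM. ACAN, a defining gene of cartilage, was at 0.352 CPM. COL2A1, in contrast, was at 264 CPM. SOX9 itself, the depleted partner, is degraded as protein, so its RNA does not check the labels. Its normalized T>C reads rose from 9789 ± 258 (0h) to 16838 ± 1687 (3h) and 21449 ± 1885 (24h; SD, n = 3 each), and the 3 groups did not overlap. In the fit of T>C reads SOX9 was called higher at both times (adjusted p = 7.24e-18 and 7.28e-39).

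SOX5 fell within 3 h of SOX9 depletion and fell at 24h as well. Its T>C reads, normalized by DESeq2 size factors as in all values of this kind given here, were 297, 225 and 255 in the 0h libraries of S9CC13_R6, S9CC47_R5 and S9CC47_R6. The 3h libraries held 143, 134 and 152, and the 24h libraries held 107, 102 and 117. Values are listed by culture in this order from here on. All 3 groups stood apart, with the lowest 0h sample above the highest 3h sample and the lowest 3h sample above the highest 24h sample. The share of all genes whose groups also stand apart was not counted, here or for other groups said not to overlap. The group means were 259 ± 36.2, then 143 ± 8.72 and last 109 ± 7.76 (SD, n = 3 each).

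In one DESeq2 fit of T>C reads over the 9 samples and 12037 genes, SOX5 at 3h had a log2 fold change of -0.85 (SE 0.18, adjusted p = 0.000402), which is 55.6% of the 0h level with a 95% interval of 43.4% to 71.0%. At 24h its log2 fold change was -1.26 (SE 0.19, adjusted p = 1.52e-08), which is 41.9% of the 0h level (32.2% to 54.4%). A gene was called at an adjusted p under 0.1, and 1.79% of all genes tested were called at 3h and 4.98% at 24h, in either direction. SOX5 was thus 1 of 95 genes that were called lower at 3h and 1 of 312 at 24h, and it ranked 36 and 57 among them by fold. Both calls were made in 11 of 11 other settings that kept all cultures. With 1 culture left out, the log2 fold change at 3h stayed between -0.91 and -0.74 and the call was made in 1 of 6 fits, and at 24h it stayed between -1.39 and -1.13 with the call made in 4 of 6. Without S9CC13_R6 or without S9CC47_R6 and with the surrogate variable kept, neither time was called. The adjusted p-values were then 1.00 and 0.629 for 3h, and 0.781 and 0.282 for 24h. The single call at 3h was made without S9CC47_R5, and in the fits that also dropped the surrogate variable the adjusted p-values for 3h were 0.746, 0.115 and 0.127.

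SOX6 was not called at 3h and was lower at 24h. The 0h libraries held 678, 624 and 639 normalized T>C reads, and the 3h libraries 737, 649 and 646. Each culture was slightly higher at 3h than at 0h, by 0.02 to 0.12 on the log2 scale, and the groups overlapped. After a day of dTAGV-1 the reads were 412, 333 and 400, below every sample of the other times. The corresponding means were 647 ± 28.0, 677 ± 51.6 and 382 ± 42.6 (SD, n = 3 each).

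The fitted log2 fold change of SOX6 at 3h was 0.05 (SE 0.11, adjusted p = 0.998), with a 95% interval of 88.8% to 121% of the 0h level. At 24h it was -0.73 (SE 0.12, adjusted p = 2.59e-07), or 60.2% of the 0h level (51.0% to 71.0%). Its change between 3h and 24h was tested directly and was -0.78 (SE 0.13, adjusted p = 2.03e-06), in a contrast in which 1.14% of genes were called. SOX6 ranked 13 of 12037 genes by p-value in that contrast. For SOX5 the same contrast gave -0.41 (SE 0.21, adjusted p = 0.638), so a further fall after 3h was not called, although it was lower in 3 of 3 cultures by 0.37 to 0.41 on the log2 scale. The SOX6 call at 24h was made in 11 of 11 other settings with all cultures and in 4 of 6 with a culture left out. It was lost without S9CC13_R6 (log2 fold change -0.83, adjusted p = 0.192) and without S9CC47_R6 (-0.74, adjusted p = 0.609), each with the surrogate variable kept. The call between 3h and 24h was lost in each of the 3 fits of that kind, with adjusted p-values from 0.123 to 0.182.

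SOX13 did not move in one direction. Before treatment its normalized T>C reads were 134, 167 and 114. The 3h libraries held 120, 116 and 180, and the 24h libraries 135, 148 and 163. The groups overlapped at every time, and the culture that was lowest at 0h, S9CC47_R6, was highest at both later times. The means were 139 ± 26.5, 139 ± 35.6 and 149 ± 14.2 (SD, n = 3 each). The fit gave SOX13 a log2 fold change of 0.07 for 3h (SE 0.21, adjusted p = 0.998) and of -0.03 for 24h (SE 0.22, adjusted p = 0.977). The sign of either value turned in other settings, without a call. The 95% intervals spanned 78.5% to 140% of the 0h level for the earlier time and 72.5% to 132% for the later one. These limits rested on single cultures. Without S9CC47_R6 the 3h value was -0.35, and its interval reached down to 47.3% of the 0h level with the surrogate variable and to 52.0% without it, below the 55.6% fitted for SOX5. With the surrogate variable kept, the lower limit at 24h moved to 44.8% without S9CC13_R6 and to 47.4% without S9CC47_R6.

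**Figure D1:**
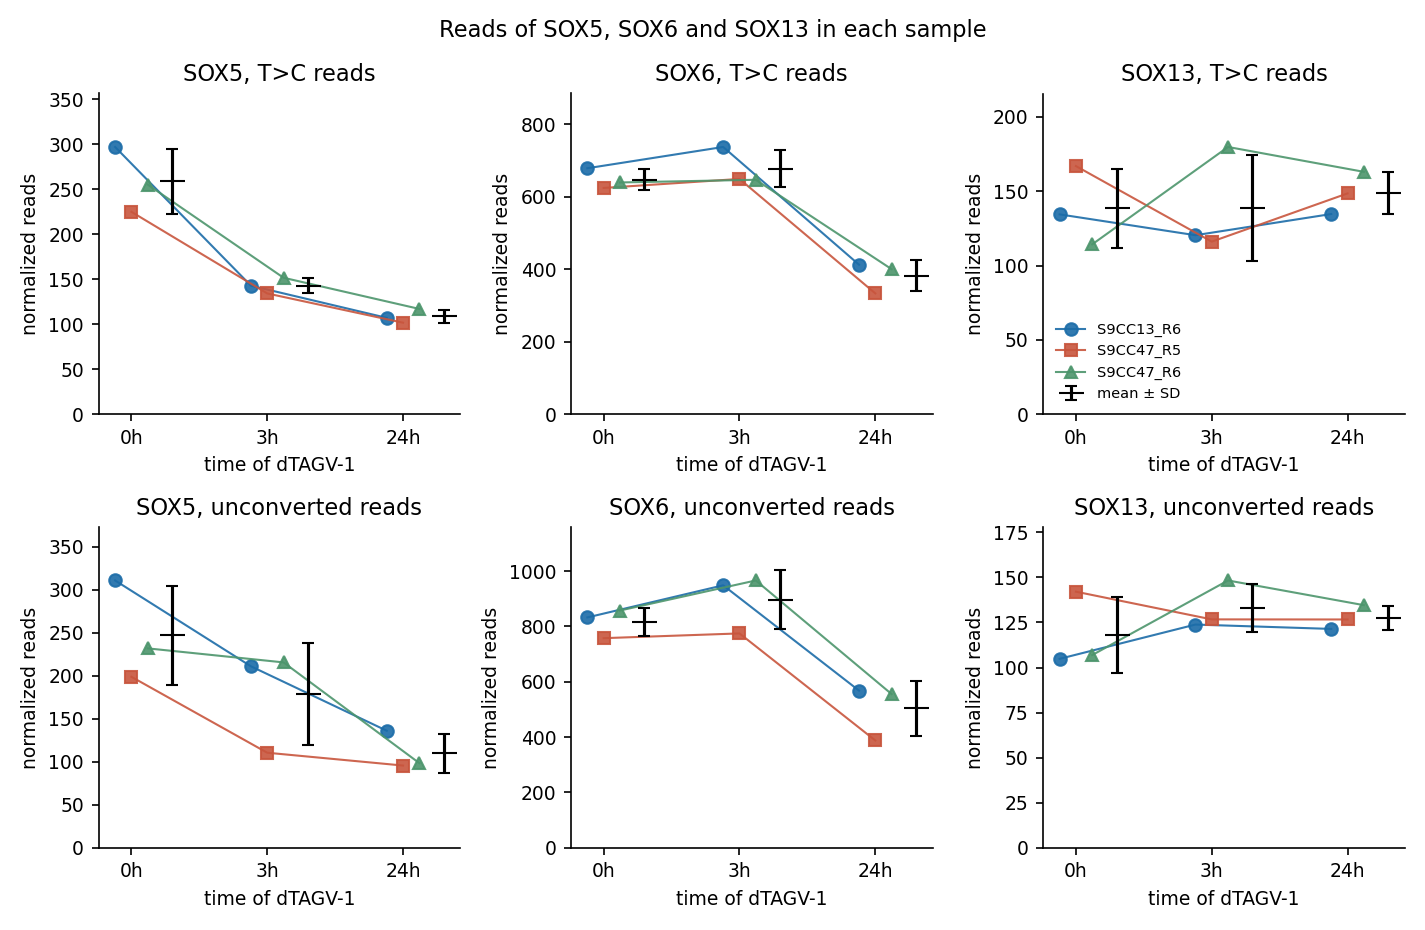
Normalized reads of SOX5, SOX6 and SOX13 (vertical axes, starting at 0) at 0h, 3h and 24h of dTAGV-1 (horizontal axes, evenly spaced and not to the scale of time), with T>C reads above and unconverted reads below. Coloured symbols joined by lines are the 3 cultures and black marks are the mean ± SD (n = 3). SOX5 T>C reads separate at all 3 times, SOX6 drops between 3h and 24h, and the lines of SOX13 cross. In T>C reads the SOX5 step from 3h to 24h was not called.

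The order of the 3 times therefore differed between the genes. For SOX5 it was 0h, 3h and 24h from high to low, with 3h and 24h not distinguished by the fit. For SOX6 the 3h and 0h levels were not distinguished and 24h was lowest. For SOX13 no neighbours in the order were distinguished. Cultures of one time differed by 1.32 times at most for SOX5 and by 1.24 times at most for SOX6, but by up to 1.55 times for SOX13.

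Whether 2 members changed by different amounts was asked within samples, from the difference of their log2(normalized T>C reads + 1), in which the size factor nearly cancels. Relative to SOX6, SOX5 changed by -0.91 ± 0.23 at 3h and by -0.47 ± 0.26 at 24h (SD over 3 cultures), and it was lower in 3 of 3 cultures at both times. Relative to SOX13, SOX5 changed by -0.84 ± 0.59 at 3h and by -1.35 ± 0.34 at 24h, again lower in 3 of 3. SOX6 relative to SOX13 changed by 0.07 ± 0.63 at 3h, lower in 1 of 3 cultures, and by -0.88 ± 0.26 at 24h, lower in 3 of 3. For 3 samples against 3 the exact two-sided permutation test cannot give less than 0.1, and 5 of these 6 comparisons reached that value (0.12 after Benjamini-Hochberg adjustment over the 6). The sixth, SOX6 against SOX13 at 3h, gave an exact p of 0.8.

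Total reads, which hold both labelled and unlabelled RNA, were then compared for the same genes. For SOX5 the 0h libraries held 605, 433 and 491 normalized total reads, the 3h libraries 348, 242 and 369, and the 24h libraries 244, 202 and 224. The 0h samples were above all others, while S9CC47_R5 at 3h fell within the range of the 24h samples. SOX5 had a log2 fold change in total reads of -0.69 by 3h (SE 0.15, adjusted p = 0.000290) and of -1.17 by 24h (SE 0.16, adjusted p = 7.42e-12), against 1.89% and 15.0% of 11710 genes called. Between 3h and 24h it fell by a further 0.48 (SE 0.17, adjusted p = 0.0879), with 5.39% of genes called in that contrast, and this call was made in 7 of 10 other settings with all cultures and in 0 of 6 with a culture left out. The call at 3h was made in 2 of 6 such fits and that at 24h in 5 of 6. It was without S9CC13_R6 (-0.64, adjusted p = 1.00) and without S9CC47_R5 (-0.61, adjusted p = 0.132) that the 3h call was lost, and without S9CC13_R6 that the 24h call was lost (-1.23, adjusted p = 0.133).

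For SOX6 the 0h libraries held 1507, 1402 and 1508 normalized total reads, the 3h libraries 1644, 1416 and 1620, and the 24h libraries 985, 736 and 974. The 24h samples lay below all others. Total reads of SOX6 changed on the log2 scale by 0.09 up to 3h (SE 0.09, adjusted p = 0.952), by -0.73 up to 24h (SE 0.10, adjusted p = 1.71e-11) and by -0.82 between 3h and 24h (SE 0.11, adjusted p = 3.53e-12). The calls at 24h and between 3h and 24h were made in 6 of 6 fits with a culture left out. SOX13 total reads overlapped throughout, with 223 to 316 in the 0h libraries, 235 to 330 in the 3h libraries and 258 to 309 in the 24h libraries. Their log2 fold changes, 0.12 (SE 0.16) and 0.01 (SE 0.17), were not called.

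Unconverted reads, the total reads less the T>C reads, hold the RNA in which no conversion was seen. SOX5 started from 311, 199 and 232 normalized unconverted reads. The 3h libraries held 211, 110 and 215, so that the groups overlapped, and the 24h libraries held 136, 95.6 and 98.4, below every 0h sample. The 3h log2 fold change of -0.52 was not called (SE 0.20, adjusted p = 0.359), while the 24h value of -1.11 was (SE 0.22, adjusted p = 2.79e-05). SOX6 unconverted reads spanned 758 to 858 in the 0h libraries, 775 to 966 in the 3h libraries and 388 to 568 in the 24h libraries. They changed on the log2 scale by 0.14 up to 3h (SE 0.11, adjusted p = 0.860), by -0.73 up to 24h (SE 0.12, adjusted p = 3.11e-08) and by -0.88 between 3h and 24h (SE 0.12, adjusted p = 4.27e-10). SOX13 was again not called, at 0.22 (SE 0.20) and 0.04 (SE 0.22). Of 11529 genes, 1.10% were called at 3h, 12.1% at 24h and 4.59% between the later times. Between 3h and 24h the SOX5 log2 fold change was -0.59 (adjusted p = 0.180), and with the culture as a replicate block it was -0.67 (adjusted p = 0.0356). The 24h call of SOX5 was lost without S9CC13_R6 (-1.26, adjusted p = 0.591).

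**Figure D2:**
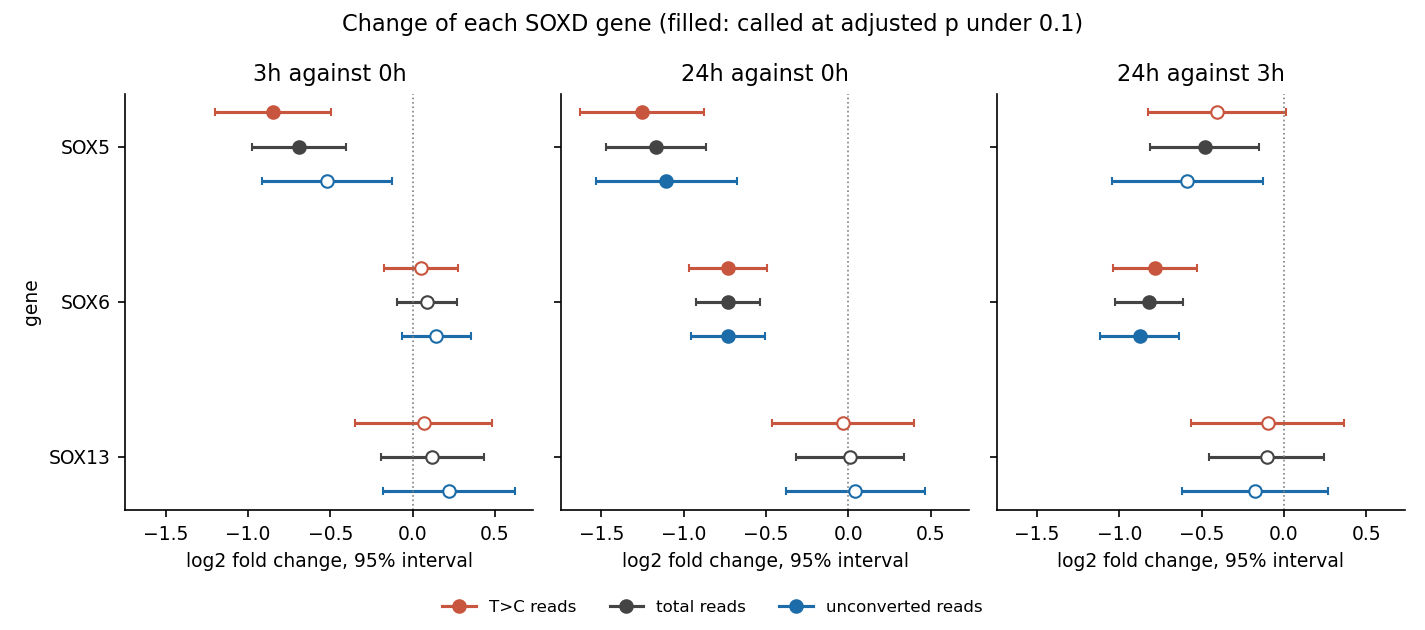
Log2 fold change (horizontal axes) with its 95% interval for SOX5, SOX6 and SOX13 in 3 contrasts, from DESeq2 fits of T>C, total and unconverted reads. Filled circles passed an adjusted p of 0.1 and open circles did not. At 3h SOX5 alone was called, in T>C and total reads, and at 24h SOX5 and SOX6 were called in all 3 kinds of read.

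Labelled and unlabelled reads of a gene can also be compared with each other, which asks whether new RNA moved apart from older RNA. In that fit, with each library as a block, the SOX5 ratio of T>C to unconverted reads changed by -0.34 on the log2 scale at 3h (SE 0.27, unadjusted p = 0.205, adjusted p = 0.999) and by -0.08 for the 24h samples (SE 0.28, adjusted p = 0.999). SOX6 changed by -0.06 (SE 0.14) and -0.05 (SE 0.15), and SOX13 by -0.19 (SE 0.27) and -0.00 (SE 0.27), with no call at either time or between the later times. By DESeq2 0 of the 3 genes reached an unadjusted p under 0.05 in any of these contrasts, and edgeR called 0. Of 11361 genes, 0.343% were called at 3h, 0.0176% at 24h and 0.915% between 3h and 24h. The 95% interval of SOX5 at 3h ran from 54.5% to 114% of the 0h ratio and so held both no change and a fall. With 1 culture left out, the SOX5 value at 3h lay at -0.27 without S9CC13_R6, at -0.57 without S9CC47_R5 and at -0.19 without S9CC47_R6, with no call.

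The T>C share of a gene is the percent of its reads that carry a conversion. For SOX5 it was 47.6%, 55.2% and 52.8% before treatment, out of 599, 337 and 634 reads. At 3h it was 34.4% (Wilson 95% interval 29.4% to 39.8%), 53.3% (47.5% to 58.9%) and 41.5% (36.2% to 47.1%), and the 24h libraries gave 44.7%, 54.1% and 58.1%. The share was lower at 3h in 3 of 3 cultures, but S9CC47_R5 hardly moved, and the groups overlapped. The 3h mean less the 0h mean was -8.81 percentage points (exact two-sided permutation test, p = 0.3, 0.45 after adjustment over 9 comparisons). SOX6 shares spanned 43.1% to 47.3% in the 0h libraries, 37.5% to 43.98% in the 3h libraries and 42.6% to 48.8% in the 24h libraries. SOX13 shares spanned 52.1% to 56.1%, 42.9% to 55.0% and 53.2% to 58.5%. For SOX6 the 3h mean less the 0h mean was -4.05 points and for SOX13 it was -6.31 points, each with an exact permutation p of 0.3. Without S9CC47_R6 the difference for SOX13 was -10.9 points, and without S9CC13_R6 it was -3.49 points. The T>C share of the whole library was also lowest at 3h in S9CC13_R6 (15.9%) and S9CC47_R5 (18.1%). Divided by the share of its library, the mean SOX5 share was 2.71 ± 0.13 times that of the library before treatment, 2.41 ± 0.46 times after 3h and 2.54 ± 0.25 times after 24h (SD, n = 3). In S9CC47_R5 the SOX5 value rose at 3h, from 2.74 to 2.94 times. For SOX6 the means were 2.33, 2.28 and 2.23 times, and for SOX13 they were 2.84, 2.69 and 2.73 times. For each gene the mean share at 24h was above that at 0h before this division and below it afterwards. No molecular identifiers are stated for the reads, so these intervals cover counting error only.

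All 3 genes carried label in a larger part of their reads than most genes. Over the pooled 0h libraries the share was 51.3% for SOX5, 44.3% for SOX6 and 54.2% for SOX13, against a median of 27.3% over 11561 genes tested in both tables. These shares stood at percentiles 88.0, 79.7 and 90.6 of those genes. The ordering was not tested, and the share also depends on how many T bases the read window of a gene holds.

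**Figure D3:**
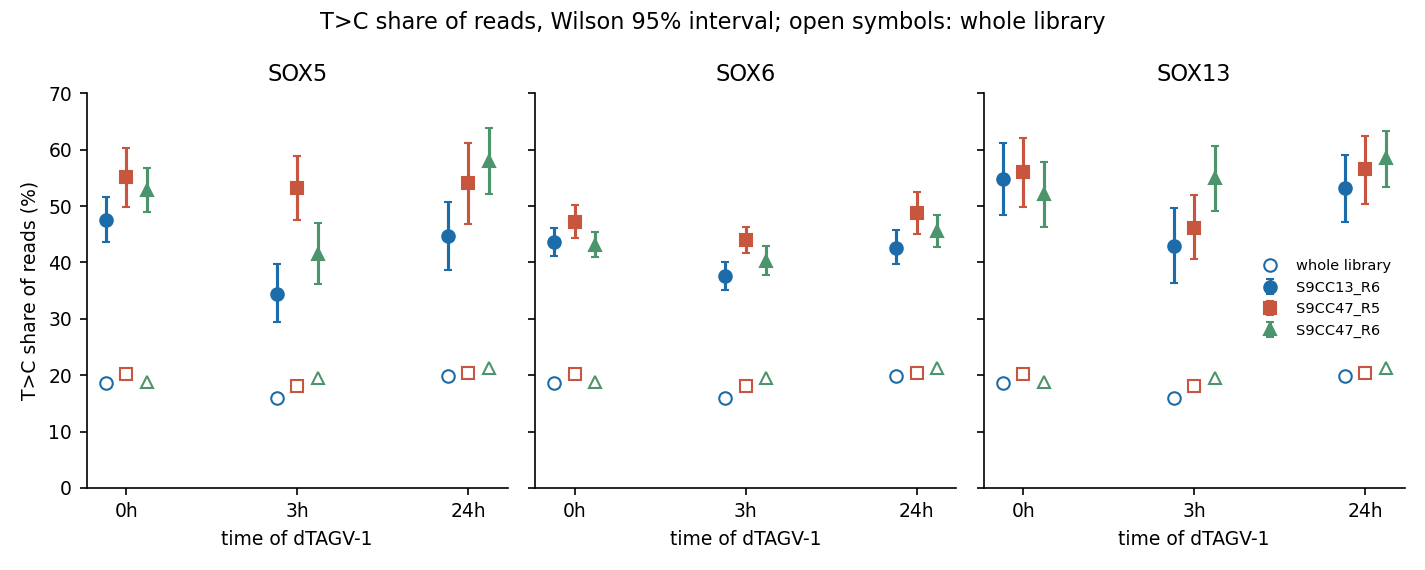
T>C share of reads in percent (vertical axis) for SOX5, SOX6 and SOX13 at 0h, 3h and 24h of dTAGV-1. Filled symbols are the gene in each culture with its Wilson 95% interval, and open symbols of the same shape are the whole library. Every share of the 3 genes lies between 34.4% and 58.5%, above those of the libraries at 15.9% to 21.3%.

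Markers of other cell states moved over the same time. The 10 crest markers summed to 3566 to 3794 CPM in the 0h libraries, 3519 to 3796 CPM in the 3h libraries and 4013 to 4597 CPM in the 24h libraries. In T>C reads 5 of the 10 were called higher at 24h, when 4.98% of all genes were called in either direction. The 7 chondrocyte markers, carried by COL2A1 and COL9A1 and with COL10A1 at 0 reads, summed to 340 to 372, 312 to 354 and 173 to 225 CPM. The chondrocyte sum, like the T>C reads of both SOX5 and SOX6, was thus lowest at 24h. For the 5 glial and melanocyte markers, with SOX10 at 0.0554 CPM on average, the sums overlapped, at 3.36 to 3.47 CPM, then 2.92 to 3.43 CPM and last 2.43 to 3.89 CPM. The 6 pluripotency markers summed to 369 to 437, 325 to 371 and 304 to 328 CPM, carried by LIN28A, and the 6 neural markers, with SOX1 at 0 reads, to 89.5 to 96.7, 89.4 to 106 and 64.0 to 85.7 CPM. The part of these shifts in the fall of SOX5 and SOX6 was not tested, and in bulk samples fewer cells of a type and less RNA per cell cannot be told apart.

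Cartilage genes that SOX9 binds with SOX5 and SOX6, or that chondrocytes make, were examined next as one list. Of 20 such genes, 10 passed the filter on T>C reads. Over all genes tested, 1.79% were called at 3h and 4.98% at 24h, in either direction. At 3h 1 was called, FRZB, a secreted WNT inhibitor, which fell by 0.59 on the log2 scale (SE 0.11, adjusted p = 1.18e-05). At 24h 4 were called and all were lower. COL2A1, the main collagen of cartilage, fell from 776 ± 27.0 to 360 ± 74.4 normalized T>C reads (log2 fold change -1.10, SE 0.13, adjusted p = 8.73e-14), after -0.35 at 3h (adjusted p = 0.215). COL9A1 changed by -1.07 (SE 0.33, adjusted p = 0.0316) and COL11A1 by -0.43 (SE 0.13, adjusted p = 0.0270), both chains of fibrils that hold COL2A1. The fourth was MIA, a secreted protein of chondrocytes and melanocytes, at a mean of 6.62 T>C reads. Its log2 fold change was -3.02 (SE 1.07, adjusted p = 0.0977). With means of 14.5, 3.36 and 1.98 reads at the 3 times, it could pass the filter through the 0h group alone, which favours a call lower. The median log2 fold change of the 10 was -0.40 at 3h and -0.56 at 24h, against -0.01 and 0.00 over all 12037 genes. COL9A2 and COL11A2 were tested and not called, while ACAN, MATN1 and COL9A3 did not pass the filter on T>C reads. In total reads, which this filter does not use, they were at 0.352, 0.274 and 0.485 CPM. SOX5 was called at 3h, when COL2A1, COL9A1 and COL11A1 were not, but the difference between these genes was not tested. The list was written with results of these data known and is no independent evidence.

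Other SOX genes gave a different picture. Of 16 listed, 7 passed the filter, and 4.98% of all genes tested were called at 24h. Besides SOX9, the SOXC genes SOX4 and SOX11 were called at 24h, and both were higher, at 0.37 (SE 0.08, adjusted p = 0.000143) and 0.38 (SE 0.07, adjusted p = 1.40e-05) on the log2 scale. Their T>C reads went from 8611 ± 185 to 10854 ± 763 and from 5339 ± 295 to 6851 ± 123. SOX8, the closest relative of SOX9 that was tested, was not called, with log2 fold changes of -0.15 at 3h and 0.04 at 24h. Of the SOX genes tested, those called lower were SOX5 and SOX6 of the SOXD group.

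Nuclear partners of SOXD proteins were looked at in the same fit. Of 9 tested, 0 were called at 3h and 0 at 24h by DESeq2, and edgeR called 0 at both. By DESeq2, 1 had an unadjusted p under 0.05 at each time, and by edgeR it was 1 at 3h and 3 at 24h. Over all 12037 genes tested, 1.79% were called at 3h and 4.98% at 24h, so 0 of 9 does not set these partners apart. CTBP2, the corepressor that SOX6 binds, changed by -0.19 (SE 0.08, adjusted p = 0.336) and -0.13 (SE 0.08, adjusted p = 0.525). HDAC1 changed by 0.04 and 0.12 and TCF7 by -0.13 and 0.39. TCF7L2, a DNA-binding partner of beta-catenin, changed by -0.14 and -0.19, and none of these was called. Of 6 WNT readout genes tested, NKD1, a feedback inhibitor of the pathway, was called at 3h, at 0.59 (SE 0.14, adjusted p = 0.00153). At 24h 0 of the 6 were called by DESeq2, with 1 at an unadjusted p under 0.05. By edgeR 0 were called as well, with 3 at an unadjusted p under 0.05. Beside a share of 4.98% over all genes, 0 of 6 does not set these genes apart either. Among 9 crest, glial and melanocyte genes that SOXD and SOXE proteins share, 4 were tested and 2 were called, both lower at 3h and at 24h. The shares called over all genes were the same 1.79% and 4.98%. RHOB, a small GTPase of migrating crest, was called lower at both times, by -1.02 on the log2 scale at 3h (SE 0.26, adjusted p = 0.00745) and by -0.84 after a day (SE 0.26, adjusted p = 0.0433). With the culture as a replicate block, 1 of these 4 genes was called at 24h and RHOB was not. ERBB3, the neuregulin receptor of crest and glia, went from 40.4 to 6.29 and 1.64 T>C reads and was called at both times. By DESeq2 its log2 fold changes were -3.28 (SE 0.71, adjusted p = 0.000466) and -4.26 (SE 0.86, adjusted p = 7.15e-05). Near the floor at 24h, it could pass the filter on low counts through the 0h group alone, which favours a call lower.

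**Figure D4:**
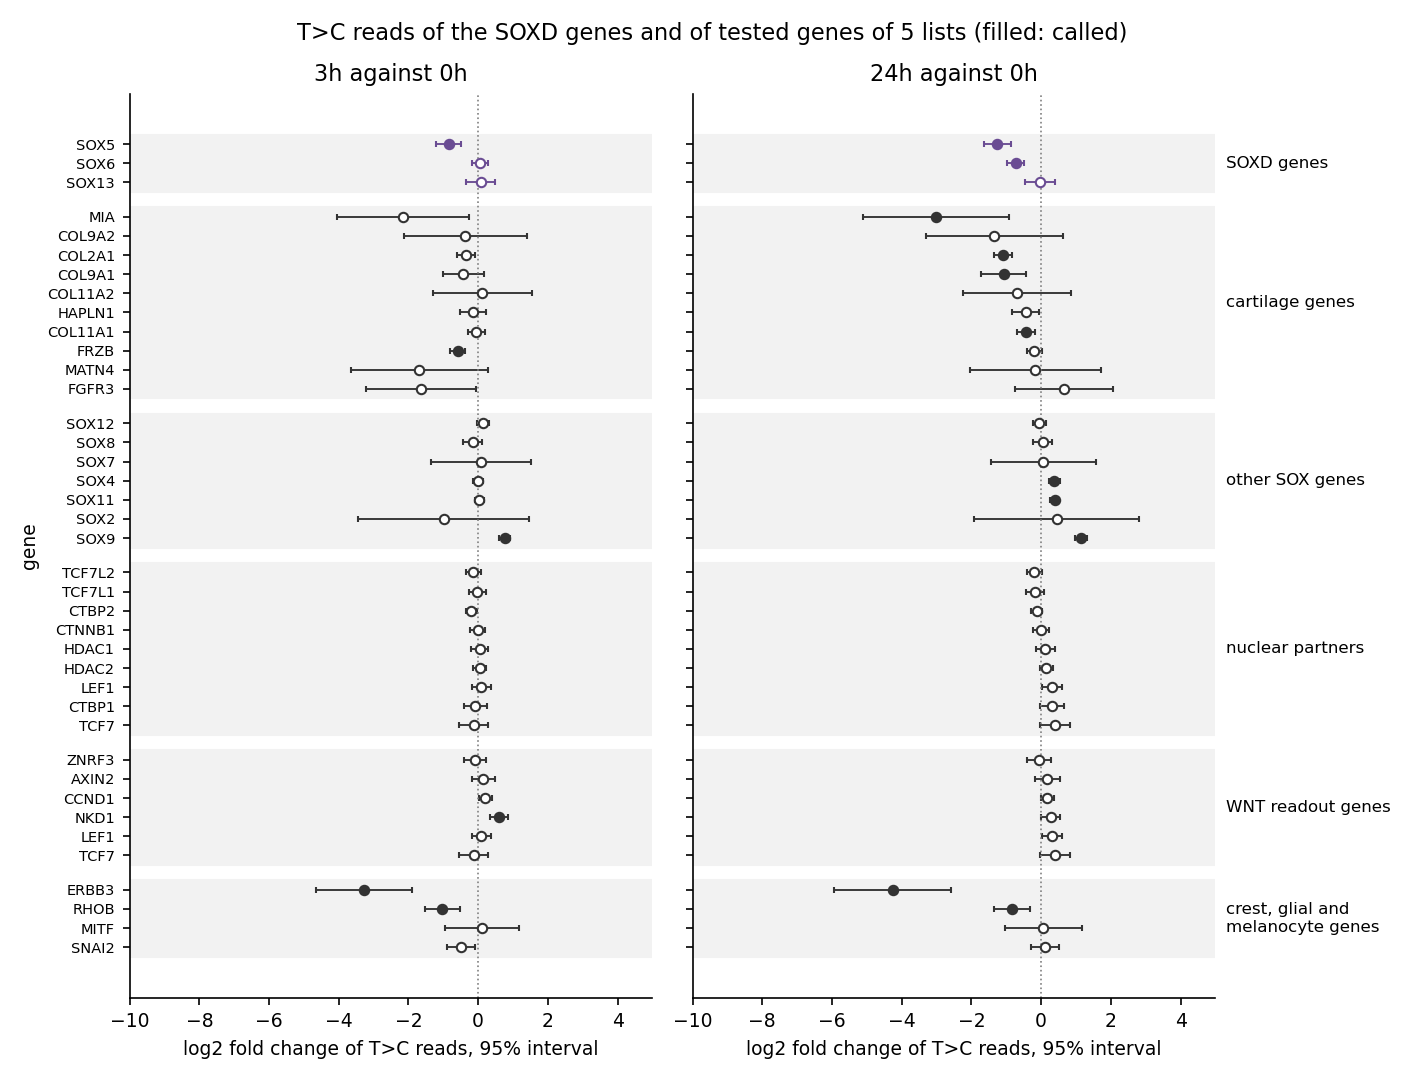
Log2 fold change of T>C reads (horizontal axes) with its 95% interval at 3h and at 24h for the SOXD genes and for each gene of the 5 lists that passed the filter. Filled circles were called at an adjusted p under 0.1. At 24h the filled circles left of 0 are SOX5, SOX6, 4 cartilage genes and 2 crest and glial genes. Open circles lie left of 0 as well, and the 9 nuclear partners stay uncalled.

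The genes most like each member over the 9 samples were found by Pearson correlation of log2(normalized T>C reads + 1) among 8676 genes with a mean of at least 50 reads. For SOX5 these were NID1 (r = 0.98), a basement membrane protein, LRATD2 (0.97) and NHS (0.97). NID1 fell to a similar degree, with log2 fold changes of -0.93 at 3h (adjusted p = 3.83e-05) and -1.25 at 24h (adjusted p = 8.17e-09), and LRATD2 fell further, by -3.29 and -4.54. For SOX6 they were CNOT1 (0.97), a scaffold of the mRNA deadenylation complex, CBX6 (0.96), a Polycomb protein, and HASPIN (0.95), a mitotic kinase. Each fell less than SOX6 at 24h, which was at -0.73. By DESeq2 the values were -0.18 for CNOT1 (adjusted p = 0.412), -0.28 for CBX6 (adjusted p = 0.0752) and -0.44 for HASPIN (adjusted p = 0.606). For SOX13 they were RIPK2 (0.93), HIBCH (0.93) and ABCD3 (0.92), none of which was called at any time. Between the members r was 0.68 for SOX5 and SOX6, -0.16 for SOX5 and SOX13 and -0.31 for SOX6 and SOX13. SOX9 T>C reads ran against SOX5 (r = -0.96), with rank 8669 of the genes most like SOX5. These values describe 9 samples that share cultures and 3 times, and by Spearman correlation or total reads 0 or 1 of the 3 genes named for each member came up again.

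Genes next to the members were looked at to see whether a whole region moved. Only genes wholly outside the span of a member were taken. The 1 protein-coding gene that overlaps the span of SOX6 was therefore left out. The nearest tested protein-coding genes on either side of SOX5 are ETNK1, 838.8 kb away, and BCAT1, 247.5 kb away, and their T>C log2 fold changes at 24h were 0.35 (SE 0.18) and -0.01 (SE 0.11). Beside SOX6 lie CYP2R1, 1074.2 kb away, with -0.50 (SE 0.32), and RPS13, 334.8 kb away, with -0.23 (SE 0.09, adjusted p = 0.136). Beside SOX13 lie SNRPE, with -0.07 (SE 0.12), and ETNK2, whose near end lies 3.3 kb beyond it and which is on the opposite strand and had -0.74 (SE 0.32, adjusted p = 0.240). Of these 6 neighbours 0 were called by DESeq2 in any contrast. Over all genes 1.79% were called at 3h, 4.98% at 24h and 1.14% between 3h and 24h, so 0 of 6 does not set them apart. An unadjusted p under 0.05 was reached by 0 at 3h and by 2, ETNK2 and RPS13, at 24h.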

How the data were processed

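SLAM-seq libraries of 9 samples (3 cultures at 3 times) were analysed from 2 tables of whole-number counts, total reads and T>C reads per gene, which the authors deposited. The authors made these counts from 3′-end reads (QuantSeq) with slamdunk on hg38, per the paper's methods and the submitters' processing notes. The intervals counted, their strand rule and any molecular identifiers are not given in the sources used here. All 9 columns of each table were used and 0 columns were left out. Samples were grouped by the time in their titles, and the culture is the clone and differentiation batch given there.

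Unconverted reads are total less T>C reads. Of 18970 listed genes, 18451 matched GENCODE 44 by symbol, 11 a RefSeq symbol and 390 a synonym, 118 matched none, and 18769 were protein-coding. Of the protein-coding genes, those that reached 1 CPM in 3 samples were fitted with DESeq2 1.42.0 (R 4.3.3; Wald test, independent filtering off) with time, differentiation batch and 1 surrogate variable (sva 3.50.0), and called at a Benjamini-Hochberg adjusted p under 0.1. Each kind of read was scaled by its own size factors, so changes are relative to most genes of a library and a shift of all RNA would not show. The labelled share was fitted on T>C and unconverted reads together, with the library as a block. All contrasts against 0h share the same 0h samples. T>C shares and differences between members were tested by exact permutation over samples. The fits were tested on simulated data.

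T>C reads depend on the number of T bases sequenced and on label uptake, and 4sU was present for only part of the treatment. Reads are 3′ tags and were not scaled to length, so levels of different genes were not ranked. SOX5 rested on 98 to 335 T>C reads per library, SOX13 on 91 to 220 and SOX6 on 321 to 839. Shares carry 95% Wilson intervals. Same-culture samples deviated together weakly, with a mean correlation of 0.131 for T>C reads (0.0169 to 0.286 over 9 pairs of samples), 0.273 for total reads (-0.0566 to 0.606) and 0.243 for unconverted reads (-0.0429 to 0.532). Samples were paired by the culture their titles name, and a fit with that culture as a block was tried. Also tried were edgeR 4.0.16 with TMM, TMM factors, other filters, size factors from total reads, other terms in the model, 6 samples only and each culture left out. By their labels, S9CC47_R5 and S9CC47_R6 are separate differentiations of 1 clone, and S9CC13_R6 and S9CC47_R6 are different clones in 1 differentiation batch. The main fit has no term for culture. Its p-values measure the spread left among the 9 samples after time, batch and surrogate variable, and all samples come from these 3 cultures.

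The members and the gene lists were chosen with earlier results of these data known. Named beside the members were genes of the lists with their counts and examples, the 3 genes most correlated with each member, and the nearest tested coding gene on each side. The list genes were the classic cartilage targets and up to 4 called genes with the largest fold and a mean of at least 50 T>C reads. MIA and ERBB3, below that mean, SOX8 and the markers of cell types were named after their values were seen. A gene of 2 of the lists is not reported here, and its lists are counted without it. Promoter sequences came from RefSeq (GRCh38.p14).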

Additional observations from a re-analysis of the deposited data

Results flagged for a closer look

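These results stood out because the effect of SOX9 depletion differed between its 2 times of sampling, by a direct test of 24h against 3h in DESeq2. SOX6 differed in all 3 kinds of read, by -0.78 on the log2 scale in T>C reads (adjusted p = 2.03e-06), by -0.82 in total reads (adjusted p = 3.53e-12) and by -0.88 in unconverted reads (adjusted p = 4.27e-10). SOX5 differed in total reads, by -0.48 (adjusted p = 0.0879), and not in T>C reads, where the value was -0.41 (adjusted p = 0.638). Each difference was negative in 3 of 3 cultures.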

How the results depend on the processing

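With all 3 cultures kept, SOX5 and SOX6 kept the direction and side of the threshold of each T>C call. SOX5 lay between -0.92 and -0.84 at 3h, with adjusted p-values from 1.34e-04 to 0.00902, and between -1.28 and -1.25 at 24h. The SOX5 difference in total reads between 3h and 24h was not called with the culture as a replicate block and 1 surrogate variable (-0.60), with time as the only term (-0.51) or with the 6 samples compared (-0.48). In unconverted reads the same difference was called with no surrogate variable (-0.66) and with the replicate block (-0.67). The replicate block changed no other call of the 3 genes. SOX6 T>C reads at 3h turned to -0.0280 with size factors from total reads. SOX13 was called in no setting, and its direction turned often. Its T>C value was -0.00724 at 3h with the replicate block. At 24h it was 0.11 with no surrogate variable, 0.10 with the block, 0.11 with time only and 0.12 with 6 samples, and between 3h and 24h it was 0.10, 0.11 and 0.11 in the first 3 of these fits. Its total value at 24h was -0.12 with the block and a surrogate variable and -0.0654 with 6 samples, and between 3h and 24h it was 0.0790 with no surrogate variable, 0.0838 with the block and 0.0805 with time only. Its unconverted value at 24h was -0.0466 with the block and a surrogate variable and -0.0352 with 6 samples, and its labelled share at 24h was 0.000967 with a mean of at least 20 counts. The cause was not tested in any of these.

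With 1 culture left out, 6 samples remained. A fit with the surrogate variable then had 1 residual degree of freedom (2 without S9CC47_R5, when 1 batch was left), and a fit without it had 2 (3 without S9CC47_R5). Calls were lost in fits of both kinds. T>C values then ranged from -0.91 to -0.74 (SOX5, 3h), -1.39 to -1.13 (SOX5, 24h), -0.83 to -0.61 (SOX6, 24h) and -0.90 to -0.67 (SOX6, 24h against 3h). SOX13 T>C values ranged from -0.35 to 0.28 at 3h, -0.28 to 0.27 at 24h and -0.30 to 0.26 between them. Total values ranged from -0.83 to -0.61 (SOX5, 3h), -1.31 to -1.11 (SOX5, 24h) and -0.62 to -0.38 (SOX5, 24h against 3h), and for SOX13 from -0.21 to 0.30, -0.38 to 0.30 and -0.39 to 0.21. Unconverted values at 3h ranged from -0.70 to -0.34 for SOX5, from 0.08 to 0.18 for SOX6 and from 0.03 to 0.36 for SOX13, and at 24h from -1.26 to -1.09 for SOX5 and from -0.23 to 0.28 for SOX13. The labelled share at 3h ranged from -0.57 to -0.19 for SOX5, from -0.109 to -0.0208 for SOX6 and from -0.380 to -0.0873 for SOX13. At 24h it ranged from -0.104 to 0.0933 for SOX13, -0.186 to 0.0187 for SOX5 and -0.101 to 0.00256 for SOX6, and between 3h and 24h from -0.0355 to 0.0616 for SOX6, from 0.00578 to 0.49 for SOX5 and from 0.0955 to 0.28 for SOX13. The T>C share at 3h less that at 0h ranged from -12.2 to -6.62 points for SOX5, -4.67 to -3.05 for SOX6 and -10.9 to -3.49 for SOX13, and at 24h less 0h from -1.98 to 2.10, 0.288 to 2.01 and -0.643 to 3.43 points. These points were not divided by the share of the library. The change of SOX6 relative to SOX13 at 3h ranged from -0.18 to 0.43.

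Over all settings, the genes called among all tested went from 47 to 288 at 3h, 54 to 968 at 24h and 20 to 530 between them in T>C reads, 35 to 222, 154 to 2018 and 93 to 1546 in total reads, 17 to 145, 131 to 1679 and 91 to 1166 in unconverted reads, and 7 to 47, 0 to 4 and 13 to 161 in the labelled share.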
